A study of Mus musculus with 31 samples.

Results

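Chemokine receptor genes of macrophages were followed across 2 RNA sequencing experiments on mouse bone marrow-derived macrophages. The 6 genes were Ccr1, Ccr2, Ccr3, Cx3cr1, Cxcr4 and Ccrl2, taken by name from 35275 gene identifiers in experiment 1 and 54532 in experiment 2. Some of them were selected on strong falls with lipopolysaccharide (LPS) or with the BRD9 inhibitor in experiment 1, so their values in those contrasts are given as a description, with no test. All 6 passed the filter on low counts in experiment 1. In experiment 2, 5 passed, and Cx3cr1 did not, with 36 reads in the 10 libraries together.

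The cells came from the marrow of male C57BL/6J mice aged 6 to 12 weeks and were grown with conditioned medium of L-929 cells, a fibroblast line whose medium supplies macrophage growth factor. Experiment 1 had 7 groups of 3 libraries: vehicle, LPS alone, and LPS after Dex, after iBRD9, after dBRD9, after Dex with iBRD9 or after Dex with dBRD9. Experiment 2 had 5 groups of 2 libraries: vehicle, IFNγ + LPS, and the same stimulus after Dex, after dBRD9 or after both. A group is written with plus signs below, such as Dex + LPS. Dex is dexamethasone, a synthetic glucocorticoid, given at 1 µM. iBRD9 blocks the bromodomain of BRD9, which belongs to a chromatin remodelling complex called non-canonical BAF, and was given at 3 or 10 µM. dBRD9 is a compound that degrades BRD9, given at 250 nM. Compounds were added overnight before LPS at 100 ng/ml for 3 h. The labels do not say which iBRD9 dose each sample had, and give no dose or time for interferon gamma (IFNγ). The replicates are not said to come from separate mice or cultures, so p-values measure only the spread between these libraries, which may be technical.

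Chemokine receptors are proteins with a chain of membrane-spanning helices that couple to inhibitory G proteins and steer leukocytes along gradients of chemokines. CCR1 and CCR3 bind overlapping inflammatory CC chemokines, CCR2 binds CCL2 and draws monocytes out of the marrow, and CX3CR1 binds fractalkine. CXCR4 binds CXCL12 and holds leukocytes in the marrow, while CCRL2 is an atypical receptor that presents the chemoattractant chemerin to CMKLR1 without signalling in the classical way. CCR3 is best known from eosinophils. In monocytes that become macrophages CCR2 and CX3CR1 are classical markers of state.

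Of the 6 genes, 5 lie on chromosome 9 (mm10, GENCODE M21). Ccr1 (ENSMUSG00000025804, chr9:123962124-123968692, minus strand), Ccr3 (ENSMUSG00000035448, chr9:124021972-124031689, plus strand) and Ccr2 (ENSMUSG00000049103, chr9:124101950-124113557, plus strand) lie near each other. Together they cover 151434 bp. Ccrl2 (ENSMUSG00000043953, chr9:111054486-111057519, minus strand) and Cx3cr1 (ENSMUSG00000052336, chr9:119901616-120069879, minus strand) are elsewhere on that chromosome, and Cxcr4 (ENSMUSG00000045382, chr1:128588199-128592293, minus strand) is on chromosome 1. The annotated span of Cx3cr1 overlaps 9 other genes, and Ccr1 and Ccr1l1 are close paralogs. The strand setting of the counting is not given in the sources used here, so reads of such pairs may have been shared.

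All 6 genes had a promoter in RefSeq's GRCm38.p6 annotation. In each, 240 bases were searched, from 250 to 11 bases before the start, on both strands for TGANTCA (AP-1), GGG and CC around 5 free bases (NF-κB), GAAA on both sides of 2 free bases (IRF), GAGGAA (PU.1), TTGCNNAA (C/EBP) and ACANNNTGT (the glucocorticoid receptor). These letters occur in 6.58%, 44.2%, 2.87%, 22.3%, 9.29% and 5.64% of all 32851 promoters of this length, in that order. Printed here, 5′ to 3′ along the gene's strand with matches in capitals, are Ccrl2 (the first of its 3 promoters in the table), which was high in every LPS group, Ccr3, which was low in the groups with Dex or a BRD9 compound under LPS, and Cxcr4, which was high only in vehicle. The windows are chr9:111057529-111057768 (minus strand), chr9:124021721-124021960 (plus strand) and chr1:128592310-128592549 (minus strand).
Ccrl2: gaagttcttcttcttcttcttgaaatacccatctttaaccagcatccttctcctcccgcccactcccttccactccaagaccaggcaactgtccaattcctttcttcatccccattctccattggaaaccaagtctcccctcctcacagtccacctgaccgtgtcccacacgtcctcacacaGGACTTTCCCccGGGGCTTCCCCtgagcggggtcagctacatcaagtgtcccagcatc
Ccr3: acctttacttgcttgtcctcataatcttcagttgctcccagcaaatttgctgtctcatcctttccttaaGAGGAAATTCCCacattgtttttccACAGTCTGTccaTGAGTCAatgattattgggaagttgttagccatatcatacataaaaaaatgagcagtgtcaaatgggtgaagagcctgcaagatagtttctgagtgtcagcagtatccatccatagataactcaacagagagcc
Cxcr4: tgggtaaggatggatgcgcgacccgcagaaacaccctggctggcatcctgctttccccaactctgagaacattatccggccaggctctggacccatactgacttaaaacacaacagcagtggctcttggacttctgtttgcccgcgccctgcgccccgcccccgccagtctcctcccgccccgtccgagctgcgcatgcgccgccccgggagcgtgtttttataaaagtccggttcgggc
The Ccrl2 window held NF-κB letters at 68, 56 and 55 bases before the start, the last pair overlapping, and the windows of its other 2 promoters held none of the letters searched. The Ccr3 window held AP-1 letters at 144 bases, glucocorticoid receptor letters at 156 bases, and NF-κB letters at 179 bases that overlap PU.1 letters at 181 bases. Ccr1 had NF-κB letters at 74 bases and PU.1 letters at 129 bases, and Cx3cr1 had NF-κB letters at 174 bases. None of these letters was in the Cxcr4 window or in that of Ccr2. Windows were placed by RefSeq starts, which can differ from the GENCODE starts given above. The Ccr2 window (chr9:124101933-124102172), that of Cx3cr1 and those of the other 2 Ccrl2 promoters lay almost wholly inside the GENCODE gene spans. A match is a description of the sequence, and binding was not measured here.

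Depth was 19.3 to 29.9 M counts per library in experiment 1 and 14.5 to 17.9 M in experiment 2. Summed levels of 10 macrophage markers were 13163 to 28471 counts per 1000000 (CPM, scaled by TMM factors) in experiment 1 and 13180 to 15276 in experiment 2, with none of the 10 at 0, which matches the labelled cell type. In experiment 1 the summed markers of B cells were at 13.2 to 53.3 CPM (nearly all Ighm), those of mast cells and basophils at 0.786 to 34.6, of neutrophils at 0.984 to 24.5, of dendritic cells at 0.748 to 9.04, of T and NK cells at 0.0414 to 0.477 and of stromal cells at 0 to 0.660. Some moved with the treatments: neutrophil markers were at 17.4 to 24.5 CPM with LPS and 0.984 to 2.37 with iBRD9 + LPS, and those of mast cells and basophils, led by Hdc, at 30.5 to 34.6 with LPS and 4.95 to 6.68 with Dex + LPS. Their part in the members' values was not tested. Stromal markers were at 33.5 to 67.4 CPM in experiment 2. Replicate 1 of Dex + LPS and replicate 1 of Dex + dBRD9 + LPS stood apart from their groups by transcript length (Spearman's rho of the deviation with length -0.66 and -0.49 over 8483 genes). In experiment 2 the deviations of the vehicle pair and of the Dex + IFNγ + LPS pair also followed length, with rho up to 0.62 and 0.54 in size. Calls that were lost without those first 2 libraries are named beside the result.

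Ccr1, Ccr2 and Ccr3 were lowest with iBRD9 + LPS. Ccr1, an inflammatory chemokine receptor, stood at 68.0, 71.0 and 70.8 CPM in the 3 vehicle libraries of experiment 1 and at 32.2, 35.4 and 32.4 CPM with LPS. It stood at 16.3, 16.7 and 15.4 CPM with Dex + LPS, at 3.02, 3.89 and 3.34 CPM with iBRD9 + LPS and at 32.3, 32.2 and 29.2 CPM with dBRD9 + LPS. With Dex + iBRD9 + LPS it was at 5.16, 5.82 and 4.50 CPM and with Dex + dBRD9 + LPS at 9.50, 9.84 and 12.1 CPM. The libraries of LPS and dBRD9 + LPS overlapped, and the other neighbours in this order did not. In the description, Ccr1 differed from vehicle by a log2 fold change of -1.07 with LPS and from LPS by -3.29 with iBRD9 + LPS.

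Ccr2, the monocyte receptor for CCL2, stood at 20.1, 19.0 and 20.1 CPM in vehicle and at 3.46, 3.35 and 3.77 CPM with LPS, a log2 fold change of -2.49. Under the other LPS groups it was nearly gone. The 3 Dex + LPS libraries held 18 reads together (0.217, 0.165 and 0.457 CPM), the dBRD9 + LPS libraries 17 reads (0.479, 0.0913 and 0.242 CPM), the Dex + dBRD9 + LPS libraries 4 reads and the Dex + iBRD9 + LPS libraries 3 reads. No read was counted in the iBRD9 + LPS libraries, against 235 reads with LPS, which makes the level at least 89.9-fold lower with a floor of 3 counts over the group. Intervals and floors cover counting error only. Among the groups with reads other than vehicle and LPS, neighbours in the order overlapped.

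Ccr3, the eotaxin receptor, was at 11.9, 13.2 and 11.7 CPM in vehicle and at 20.8, 23.8 and 22.3 CPM with LPS, a log2 fold change of 0.86. It stood at 4.90, 7.75 and 5.48 CPM with Dex + LPS, at 4.89, 4.20 and 5.31 CPM with dBRD9 + LPS and at 0.271, 0.497 and 0.428 CPM with iBRD9 + LPS. So LPS alone held the highest level and iBRD9 + LPS the lowest, with a log2 fold change of -5.82 between them. With Dex + iBRD9 + LPS (0.802, 0.669 and 1.08 CPM) and Dex + dBRD9 + LPS (0.767, 1.39 and 1.06 CPM) the libraries overlapped each other. Of 6 eosinophil markers, Ear6 and Il5ra were at 0 with LPS, Epx and Ear6 with dBRD9 + LPS, Epx and Il5ra with Dex + LPS, and 5 of the 6, all but Siglecf, with iBRD9 + LPS. The summed level of these markers, led by Siglecf, was 5.64 to 7.01 CPM with LPS, 10.9 to 13.5 CPM with dBRD9 + LPS, 0.456 to 0.684 CPM with iBRD9 + LPS and 0.686 to 1.604 CPM with Dex + LPS. Their part in the level of Ccr3 was not tested.

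Cx3cr1, the fractalkine receptor, was at 6.63, 9.43 and 9.53 CPM in vehicle and at 14.96, 13.8 and 14.6 CPM with LPS, a log2 fold change of 0.75. It stood at 7.57, 5.93 and 6.18 CPM with dBRD9 + LPS, at 1.604, 1.15 and 1.19 CPM with Dex + LPS and at 0.373, 0.373 and 0.0855 CPM with iBRD9 + LPS. Vehicle and dBRD9 + LPS overlapped, while LPS lay above every other group and iBRD9 + LPS below every other group. The log2 fold change of iBRD9 + LPS against LPS was -5.63. With Dex + iBRD9 + LPS (0.701, 0.669 and 0.749 CPM) and Dex + dBRD9 + LPS (0.958, 0.779 and 0.768 CPM) Cx3cr1 was between those of Dex + LPS and iBRD9 + LPS.

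Cxcr4, the CXCL12 receptor, was high in vehicle alone, at 48.7, 48.3 and 44.8 CPM. With LPS it was at 0.318, 0.415 and 0.377 CPM, a log2 fold change of -6.97 and the lowest group of the 7. It stood at 1.82, 2.31 and 1.37 CPM with Dex + LPS, at 1.12, 0.911 and 1.33 CPM with iBRD9 + LPS and at 0.575, 0.502 and 0.628 CPM with dBRD9 + LPS. With Dex + iBRD9 + LPS it was at 2.35, 2.93 and 3.89 CPM, and with Dex + dBRD9 + LPS at 1.72, 1.56 and 1.73 CPM. Every LPS group with a compound thus lay above LPS alone and far below vehicle.

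Ccrl2, the atypical receptor, ran the other way. It was at 5.90, 5.44 and 5.64 CPM in vehicle and at 313, 308 and 318 CPM with LPS, a log2 fold change of 5.79. It stood at 324, 297 and 298 CPM with Dex + LPS, at 351, 369 and 341 CPM with iBRD9 + LPS and at 243, 237 and 262 CPM with dBRD9 + LPS. With both compounds it was at 305, 280 and 279 CPM (Dex + iBRD9 + LPS) and at 253, 240 and 242 CPM (Dex + dBRD9 + LPS). All LPS groups were thus far above vehicle, and the dBRD9 groups were the lowest of them. Per kilobase of exon, Ccrl2 reached 120 CPM with LPS, against 11.8 for Ccr1 and 0.205 for Cxcr4 in the same group, while in vehicle Cxcr4 (26.1) and Ccr1 (24.7) had the highest levels of the 6 on this scale.

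The LPS against vehicle values depend on the scaling. Without TMM factors, over all genes the median log2 fold change of this comparison moved by -0.51. The log2 fold changes then were -1.58 for Ccr1, -3.00 for Ccr2, 0.34 for Ccr3, 0.24 for Cx3cr1, -7.48 for Cxcr4 and 5.28 for Ccrl2, with no change of sign. For iBRD9 + LPS against LPS the same change of scaling moved that median by 0.13.

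**Figure D1:**
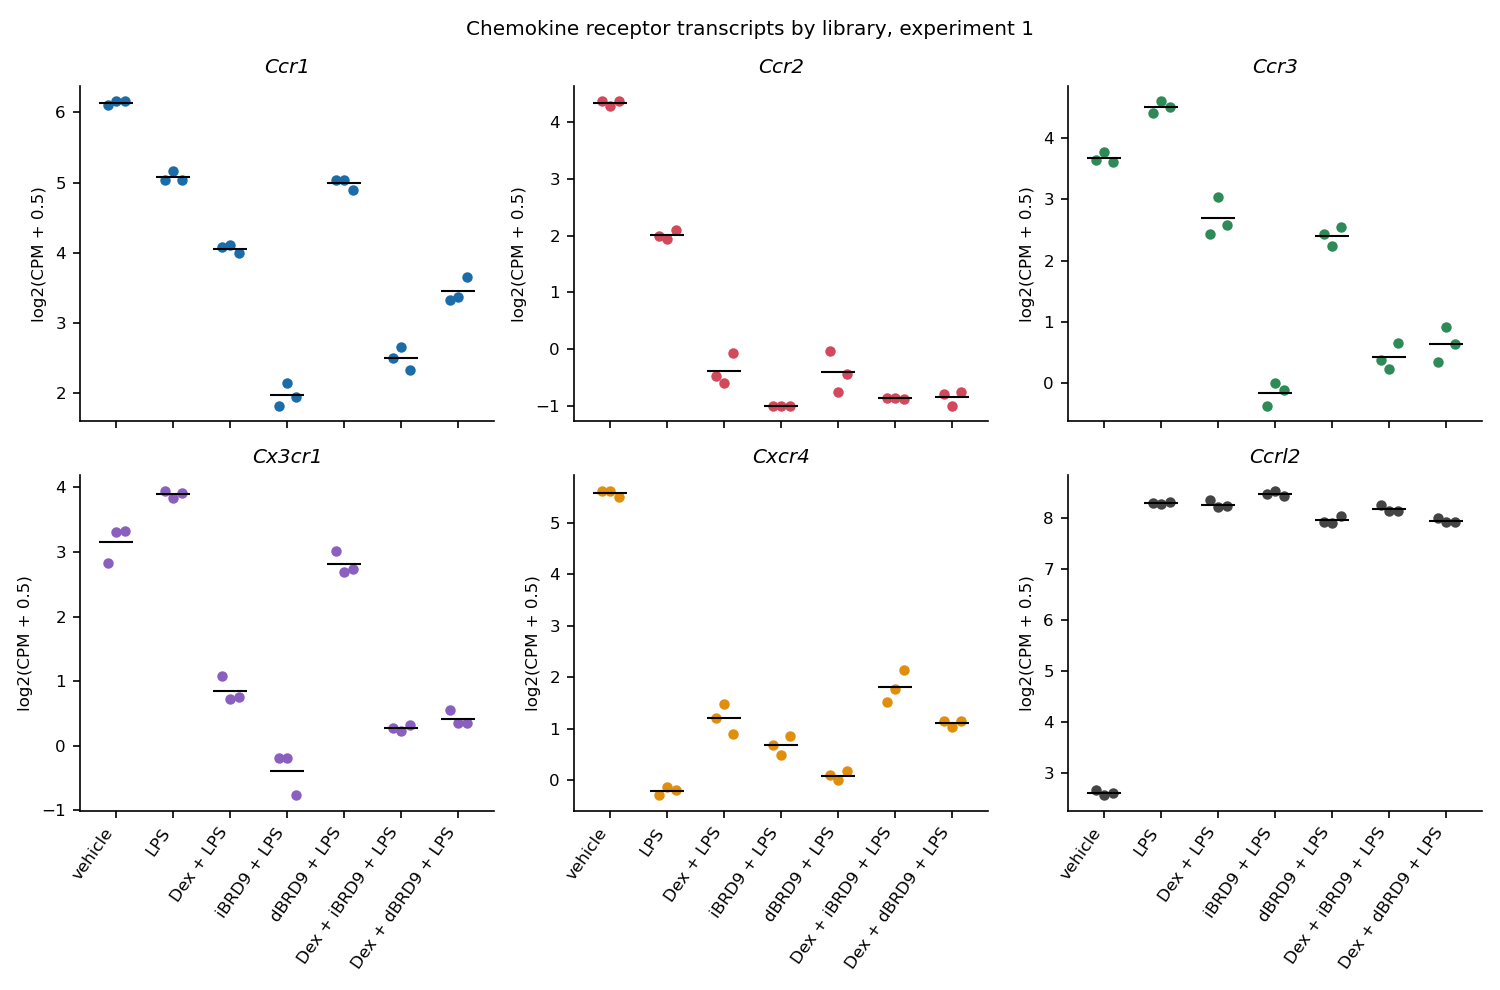
Level of each chemokine receptor gene in the 21 libraries of experiment 1, as log2(CPM + 0.5), where points are libraries and lines are means of the log values. Ccrl2 rises from vehicle to all LPS groups, Cxcr4 is high in vehicle alone, and Ccr1, Ccr2, Ccr3 and Cx3cr1 are lowest with iBRD9 + LPS.

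Dexamethasone lowered most of these receptors under LPS. Ccr2, Cx3cr1, Ccr3 and Ccr1 fell and Cxcr4 rose from a low level, while Ccrl2 did not pass the test. On the log2 scale Ccr2 fell by 3.60, with an SE of 0.29 (adjusted p = 9.97e-10 by edgeR, which also gives the other adjusted p-values here), and Cx3cr1 fell by 3.44 (SE 0.18, adjusted p = 2.12e-13). Both levels with Dex + LPS were below those of every LPS library. Ccr3 fell by 1.90 (SE 0.14, adjusted p = 5.69e-11) and Ccr1 by 1.05 (SE 0.084, adjusted p = 3.54e-10). Cxcr4 rose by 2.26 (SE 0.28, adjusted p = 3.13e-07), to a level still far under vehicle. For Ccrl2 the difference was -0.03 (95% interval -0.14 to 0.07, adjusted p = 0.623), and it was 0.05 with library totals alone. So 1 of 6 was called higher and 4 lower, against 27.9% of all 12662 tested genes called higher and 27.5% called lower. Comparisons against LPS share the LPS libraries with the contrasts on which members were selected, and so are not independent of that choice. Without both libraries that stood apart, the 5 calls were made again. In bulk RNA, fewer cells of a type and less RNA per cell cannot be told apart. Summed monocyte markers were 384 to 458 CPM with Dex + LPS, mostly F13a1 (mean 317 CPM), and 101 to 110 CPM with LPS, mostly Vcan (mean 76.1 CPM), with none of the 7 at 0. In vehicle, where Ccr2 was highest, these markers summed to 17.2 to 20.2 CPM. Their part in the falls of Ccr2 and Cx3cr1 was not tested.

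Among 19 other chemokine receptors, 7 passed the filter, and with Dex + LPS against LPS 1 was called higher and 3 lower (median log2 fold change -0.78, against 0.01 over all tested genes). Cmklr1, which recognises chemerin, rose by 1.12 (SE 0.093, adjusted p = 5.74e-10), from a mean of 66.3 to 144 CPM. Of 15 ligands of the members, 12 were tested, none was called higher and 10 were called lower, with a median of -0.72. They included Ccl4 (-1.50), Ccl6 (-1.12), Ccl3 (-1.04) and Ccl9 (-0.81). In the Dex + LPS libraries both the receptor Ccr1 and these ligands were lower than with LPS. Of 23 tested genes of receptor signalling, 9 were called higher and 7 lower. Rgs2, a GTPase activator that ends G protein signals, fell by 3.43 (SE 0.12), and Grk5, a receptor kinase, rose by 1.58 (SE 0.070).

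The BRD9 degrader lowered 4 of the 6 genes under LPS, and none was called higher. Ccr2 fell by 3.69 (SE 0.29, adjusted p = 1.18e-08), Ccr3 fell by 2.22 (SE 0.14, adjusted p = 1.83e-10), Cx3cr1 by 1.14 (SE 0.14, adjusted p = 2.96e-06) and Ccrl2 by 0.34 (SE 0.051, adjusted p = 3.88e-05). Ccr1 did not pass, with a difference of -0.09 (95% interval -0.26 to 0.07, adjusted p = 0.492), and its libraries overlapped those of LPS. Cxcr4 did not pass either, with 0.60 (95% interval -0.14 to 1.34, adjusted p = 0.298). Over all tested genes 6.64% were called higher and 9.97% lower. Higher genes made up 40.0% of the calls with TMM scaling and 57.4% with library totals alone, and the count of calls over all genes, 2103, became 3465 without both libraries that stood apart. Cmklr1 fell by 0.65 (SE 0.096). Of the 7 other receptors 1 was called higher and 2 lower, of the 12 ligands 1 higher and 6 lower, and of the 23 signalling genes 3 higher and 3 lower. Among the ligands Ccl6 fell by 1.06, Ccl7 by 0.78, and Cx3cl1, the fractalkine gene, rose by 0.31. Rgs16, another regulator of G protein signals, fell by 0.73. Summed monocyte markers were 51.0 to 59.1 CPM with dBRD9 + LPS, lower than the 101 to 110 CPM with LPS, with none of the 7 at 0. Their part in the fall of Ccr2 was not tested.

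In the description, iBRD9 + LPS against dBRD9 + LPS gave log2 fold changes of -3.20 for Ccr1, -3.60 for Ccr3, -4.50 for Cx3cr1, 0.97 for Cxcr4 and 0.52 for Ccrl2. Ccr2 was at least 6.88-fold lower, 17 reads against 0. Ccr1 thus stood at the level of LPS with the degrader and far below it with the inhibitor, in libraries that did not overlap. The doses were not matched, and these values were among those on which members were selected. Summed monocyte markers were 5.69 to 6.01 CPM with iBRD9 + LPS, with Ly6c2 at 0.

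With dexamethasone present, 4 genes were called lower with the inhibitor, Ccr2 among them on few reads, and 1 was called higher. Against Dex + LPS, Dex + iBRD9 + LPS differed in Ccr3 by -2.80 (SE 0.22, adjusted p = 2.32e-09) and in Ccr1 by -1.65 (SE 0.11, adjusted p = 6.65e-11). Ccr2, with 18 reads against 3, had a ratio of 5.77 (95% interval 1.69 to 30.6, counting error only), with an adjusted p of 0.0155. It passed the filter on low counts only through the vehicle and LPS libraries (1741 and 235 reads). Cx3cr1 was called lower as well, by -0.90 (SE 0.30, adjusted p = 0.0228), while Cxcr4 rose by 0.76 (SE 0.18, adjusted p = 0.00227). Ccrl2 did not pass, with -0.09 (95% interval -0.20 to 0.02, adjusted p = 0.195), but was called lower by DESeq2 (-0.13, adjusted p = 0.0448). Over all tested genes 16.7% were called higher and 18.0% lower, and higher genes made up 48.1% of calls with TMM scaling and 65.1% with library totals alone. With only the groups compared, 3 members were called, and the call on Cxcr4 was lost (0.75, adjusted p = 0.0749). Ccr2 was not among those called, since its reads in these groups were too few for the filter. The call on Cx3cr1 was lost without both libraries that stood apart (-0.73, adjusted p = 0.10), by limma voom (adjusted p = 0.0873) without the first Dex + LPS library (adjusted p = 0.106) and without any 1 of the 3 Dex + iBRD9 + LPS libraries (adjusted p 0.0509 to 0.0634). The call on Ccr2 was lost without the third Dex + LPS library (adjusted p = 0.0941) or the third Dex + iBRD9 + LPS library (adjusted p = 0.0516). Summed monocyte markers were 71.3 to 86.3 CPM with Dex + iBRD9 + LPS, with Plac8 at 0, below the 384 to 458 CPM of Dex + LPS.

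With the degrader on top of dexamethasone 4 genes were also called lower, Ccr2 among them on few reads, and none was called higher. Ccr3 fell by 2.48 (SE 0.21, adjusted p = 9.7e-09), Ccr1 by 0.63 (SE 0.093, adjusted p = 3.86e-05) and Ccrl2 by 0.32 (SE 0.051, adjusted p = 0.000104). Ccr2, with 18 reads against 4, had a ratio of 5.08 (95% interval 1.67 to 20.6), with an adjusted p of 0.0306, which was lost without the third Dex + LPS library (adjusted p = 0.153) or without the first or the second Dex + dBRD9 + LPS library (adjusted p 0.0535 and 0.123). Here too Ccr2 passed the filter only through the vehicle and LPS libraries, and its reads in the groups compared were too few for the filter by themselves. Cx3cr1 did not pass, with -0.66 (95% interval -1.23 to -0.08, adjusted p = 0.119), nor did Cxcr4, with -0.12 (95% interval -0.53 to 0.29, adjusted p = 0.760). Over all tested genes 6.51% were called higher and 9.28% lower. Higher genes made up 41.2% of calls with TMM scaling and 65.5% with library totals alone. In both comparisons against Dex + LPS 3 of the 7 other receptors were called lower and none higher by edgeR. Cmklr1 was among them, with -1.36 (Dex + iBRD9 + LPS) and -0.81 (Dex + dBRD9 + LPS). Some of the other receptors had few reads here. Ccr1l1 had 7 reads with Dex + LPS and 0 with either BRD9 compound added, against 67 in vehicle. Ccr7 had 3 reads with Dex + LPS and 0 with either compound added. Any call on these genes would rest on few reads. Of the 12 ligands 3 were called higher and 6 lower with Dex + iBRD9 + LPS, and 2 higher and 4 lower with Dex + dBRD9 + LPS. Ccl6 fell in both, by 1.32 and 0.67, and Ccl2, the CCR2 ligand, rose by 0.62 with Dex + iBRD9 + LPS. Of the 23 signalling genes 2 were called higher and 10 lower with Dex + iBRD9 + LPS, against 2 and 4 with Dex + dBRD9 + LPS. Summed monocyte markers were 112 to 129 CPM with Dex + dBRD9 + LPS, below the 384 to 458 CPM of Dex + LPS. Their part in the value of Ccr2 was not tested.

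Both compounds were set side by side in the presence of dexamethasone, at doses that were not matched. Ccr1 was lower with Dex + iBRD9 + LPS than with Dex + dBRD9 + LPS, at -1.02 on the log2 scale (SE 0.11, adjusted p = 8.39e-07). Cxcr4 was higher by 0.88 (SE 0.18, adjusted p = 0.00144) and Ccrl2 by 0.23 (SE 0.051, adjusted p = 0.00286). For Ccr3 the difference was -0.32 (95% interval -0.94 to 0.31), for Cx3cr1 -0.25 (95% interval -0.92 to 0.42) and for Ccr2 -0.17 (95% interval -2.31 to 1.97), and none of these passed (adjusted p 0.535 to 0.944). Ccr2 had 3 reads against 4 here and passed the filter only through the vehicle and LPS libraries. So its value cannot tell whether the compounds differed. Over all tested genes 6.93% were called higher and 9.04% lower. Of the other receptors 1 of 7, Cmklr1, was called lower (-0.55), and of the ligands 3 of 12 were called higher and 3 lower, with Ccl7 at 1.17 and Ccl6 at -0.65. Of the signalling genes 1 of 23 was called higher and 6 lower.

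The interaction of Dex and dBRD9 asks whether the effect of the degrader with Dex differed from that without it. It was called for Ccr1 alone, with -0.53 on the log2 scale (SE 0.12, adjusted p = 0.0147), while 1.82% of all tested genes were called higher and 1.57% lower. The degrader gave -0.63 with Dex and -0.09 without it. The call was lost in a fit of only the groups compared (adjusted p = 0.0529) and without the second Dex + dBRD9 + LPS library (adjusted p = 0.0542). For the other 5 genes the adjusted p was 0.435 to 0.936. The interaction was called for 1 of 12 ligands, Ccl4 (-0.41), for 2 of 23 signalling genes, Rgs1 (-0.56) and Rgs16 (0.59), and for none of the 7 other receptors.

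**Figure D2:**
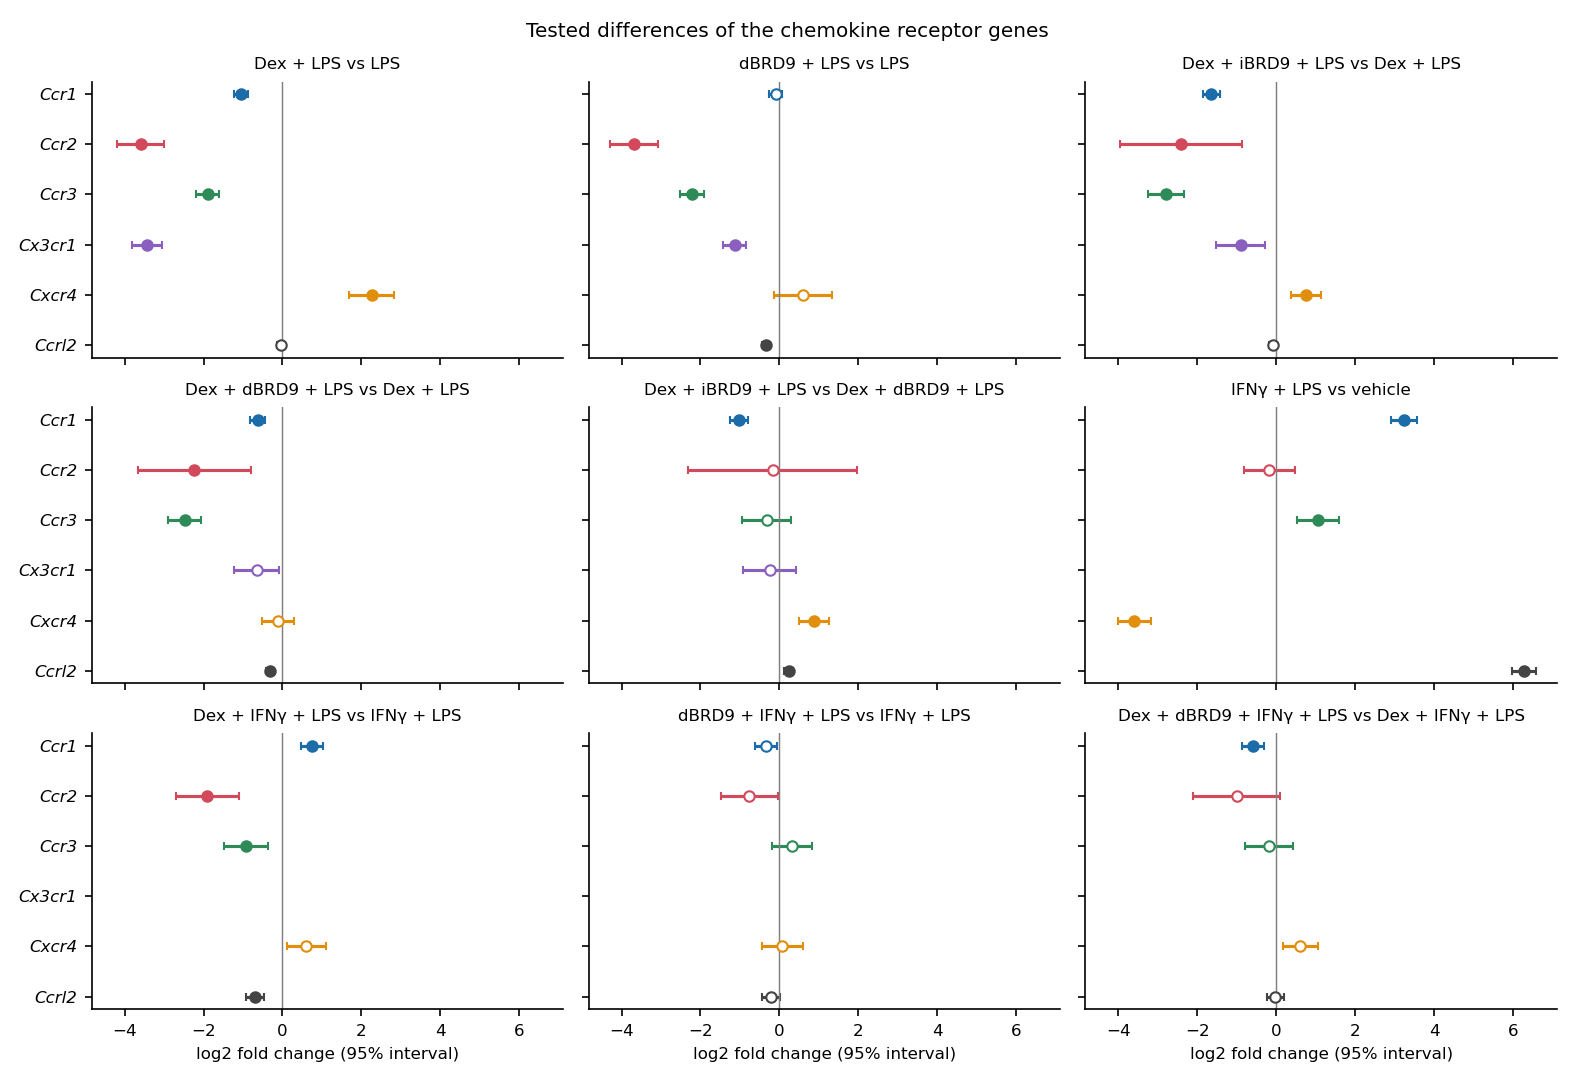
Log2 fold change of each receptor gene in 9 tested comparisons, with 95% intervals, where filled points passed the test and open points did not. Cx3cr1 is missing in experiment 2, where it did not pass the filter. Ccr2 and Ccr3 lie left of 0 in the Dex and dBRD9 comparisons under LPS, and Ccrl2 and Ccr1 lie right of 0 for IFNγ + LPS against vehicle.

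In experiment 2, Ccr1, Ccr3 and Ccrl2 rose and Cxcr4 fell with IFNγ + LPS against vehicle. Ccr1 was at 5.75 and 5.91 CPM in vehicle and at 54.7 and 55.9 CPM with IFNγ + LPS, a rise of 3.24 (SE 0.16, adjusted p = 2.1e-11). Cxcr4 was at 40.1 and 40.5 CPM in vehicle and at 2.61 and 4.14 CPM with IFNγ + LPS, a fall of 3.59 (SE 0.20, adjusted p = 1.23e-10). Ccrl2 was at 7.31 and 6.596 CPM in vehicle and at 523 and 557 CPM with IFNγ + LPS, a rise of 6.28 (SE 0.14, adjusted p = 2.3e-15). The direction of Cxcr4 and of Ccrl2 was that seen with LPS in experiment 1, and that of Ccr1 was the opposite. The experiments were not compared by a test, and the 2 sets of vehicle cells differed in Ccr1 too. Ccr3 was at 2.52 and 3.13 CPM in vehicle and at 5.83 and 5.98 CPM with IFNγ + LPS, a rise of 1.06 (SE 0.25, adjusted p = 0.00144) that did not pass with library totals alone (0.41, adjusted p = 0.158). Ccr2 was at 4.28 and 3.85 CPM in vehicle and at 3.10 and 4.14 CPM with IFNγ + LPS, and its difference of -0.18 did not pass (95% interval -0.82 to 0.47, adjusted p = 0.618), but passed with library totals alone (-0.83, adjusted p = 0.0203). So 3 of 5 tested members were called higher and 1 lower, where 32.8% of all 13313 tested genes were called higher and 35.6% lower. Without TMM factors the median log2 fold change over all genes moved by -0.65, and higher genes made up 25.2% of calls in place of 48.0%. Cx3cr1 had 4 and 17 reads in the vehicle libraries, 1 read in each IFNγ + LPS library, 0 and 1 reads with Dex + IFNγ + LPS, 9 and 2 with dBRD9 + IFNγ + LPS and 0 and 1 with Dex + dBRD9 + IFNγ + LPS.

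Of the 4 other receptors tested in experiment 2, 3 were called higher with IFNγ + LPS and none lower by edgeR, among them Cmklr1 by 1.18. Of 13 ligands 10 were called higher and 1 lower. Ccl12 rose by 8.77 and Ccl5 by 8.29, and Ccl6 fell by 0.40. The signalling genes were called in both directions, 9 higher and 11 lower of 23, with Grk3 at 3.15 and Rgs18 at -3.47. Summed monocyte markers were 45.7 to 52.4 CPM in vehicle and 231 to 271 CPM with IFNγ + LPS, with none of the 7 at 0.

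Dexamethasone raised Ccr1 under IFNγ + LPS and lowered 3 other receptors. Ccr1 stood at 82.3 and 102 CPM with Dex + IFNγ + LPS, a rise of 0.74 (SE 0.13, adjusted p = 0.000713). Ccr2, at 1.02 and 0.888 CPM, fell by 1.91 (SE 0.38, adjusted p = 0.00176). Ccrl2, at 319 and 350 CPM, fell by 0.69 (SE 0.11, adjusted p = 0.000175). The libraries of these 3 genes, and those of Ccr3 and Cxcr4 below, did not overlap between the groups. How many of all tested genes did so was not counted, and each group had only 2 libraries. Ccr3, at 2.59 and 3.62 CPM, fell by 0.93 (SE 0.26, adjusted p = 0.0179), a call that was lost without either IFNγ + LPS library or without the first Dex + IFNγ + LPS library (adjusted p 0.0773 to 0.142). Cxcr4, at 5.45 and 4.71 CPM, had a difference of 0.61 (95% interval 0.12 to 1.10) that did not pass (adjusted p = 0.0751), but passed with library totals alone (adjusted p = 0.0439) and without the second IFNγ + LPS library (adjusted p = 0.0317). Over all tested genes 10.7% were called higher and 9.21% lower, and higher genes made up 53.8% of calls with TMM scaling and 64.3% with library totals alone. Of the other receptors 1 of 4 was called higher, Cmklr1 at 1.77, and 1 lower. Of the 13 ligands 2 were called higher and 5 lower. Ccl24, an eotaxin that binds CCR3, fell by 3.78 and Ccl3 by 1.29. Of the signalling genes 6 of 23 were called higher and 4 lower, with Rgs2 at -2.28. Summed monocyte markers were 183 to 207 CPM, below the 231 to 271 CPM of IFNγ + LPS, with none of the 7 at 0, and their part in the fall of Ccr2 was not tested.

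With the degrader no member passed the test under IFNγ + LPS. By edgeR 0 of 5 passed, with 2 of 5 at an unadjusted p under 0.05, and 0 passed by DESeq2 or limma voom, where 0.819% of all tested genes were called higher and 1.01% lower. Higher genes made up 44.9% of calls with TMM scaling and 34.3% with library totals alone. The count over all genes, 243, was 65 to 90 when any 1 library of these groups was left out. Ccr1 was at 47.8 and 39.9 CPM (-0.33, 95% interval -0.62 to -0.05, adjusted p = 0.315) and Ccr2 at 1.98 and 2.27 CPM (-0.76, 95% interval -1.48 to -0.04, adjusted p = 0.390). Ccr3 was at 7.61 and 7.11 CPM, above both IFNγ + LPS libraries, with 0.32 (95% interval -0.19 to 0.82, adjusted p = 0.687). Cxcr4 was at 4.02 and 3.01 CPM (0.08, 95% interval -0.44 to 0.60) and Ccrl2 at 491 and 439 CPM (-0.21, 95% interval -0.44 to 0.01). Under LPS, where Ccr3 fell by 2.22, the value lies outside that interval, but the 2 experiments differ in stimulus, depth and replicate number, and the difference between them was not tested. Of the 13 ligands 2 were called higher and 2 lower, with Ccl24 at -1.05 and Ccl2 at 0.88, and of the 23 signalling genes 1 was called higher and 1 lower, with Rgs2 at -0.61. Summed monocyte markers were 136 to 182 CPM with dBRD9 + IFNγ + LPS, below the 231 to 271 CPM of IFNγ + LPS.

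With Dex and the degrader together, Ccr1 was the 1 member of 5 called, at 65.8 and 57.3 CPM, a fall of 0.59 against Dex + IFNγ + LPS (SE 0.13, adjusted p = 0.0381), where 0.233% of all tested genes were called higher and 1.16% lower. These shares rest on 186 calls, which were 65, 33 and 37 without the first Dex + IFNγ + LPS library and without the first or the second Dex + dBRD9 + IFNγ + LPS library. The call was lost without the second Dex + IFNγ + LPS library or without either Dex + dBRD9 + IFNγ + LPS library (adjusted p 0.202 to 0.428). Ccr2 was at 0.754 and 0.200 CPM, Ccr3 at 2.13 and 3.34 CPM, Cxcr4 at 7.96 and 7.61 CPM and Ccrl2 at 343 and 316 CPM. None of these 4 passed (adjusted p 0.175 to 0.951), although both Cxcr4 libraries lay above those of Dex + IFNγ + LPS. Rgs2 was the 1 signalling gene of 23 called, at -0.997. Of the ligands 1 of 13, Ccl8, was called, at -0.83. Summed monocyte markers were 112 to 118 CPM, below the 183 to 207 CPM of Dex + IFNγ + LPS. For the interaction of Dex and dBRD9 under IFNγ + LPS, 0 of 5 members passed by edgeR, with 0 at an unadjusted p under 0.05 and 0 by DESeq2 or limma voom. Over all tested genes 0% were called higher and 0.00751% lower.

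**Figure D3:**
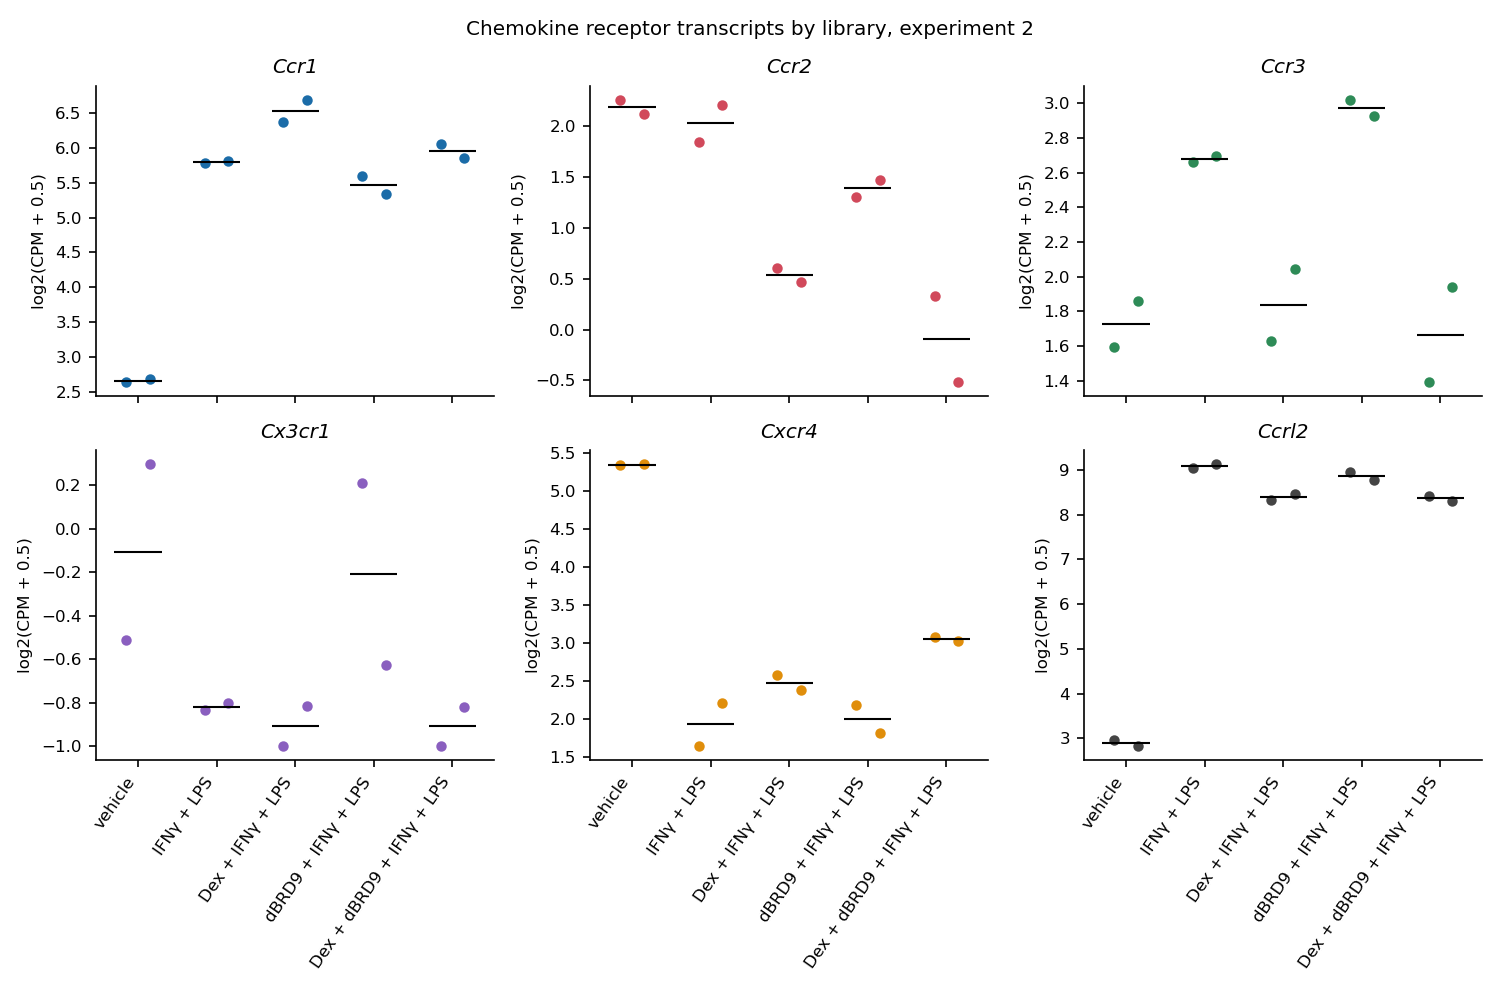
Level of each chemokine receptor gene in the 10 libraries of experiment 2, as log2(CPM + 0.5), where points are libraries and lines are means of the log values. Ccr1 and Ccrl2 are lowest in vehicle, Cxcr4 is highest there, and Cx3cr1 rests on few reads in every group.

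Of the 3 genes that lie near each other on chromosome 9, Ccr1 was at the LPS level with dBRD9 + LPS while Ccr3 and Ccr2 were far lower. Csrnp1, which lies inside the annotated span of Cx3cr1 on the same strand, fell by 0.53 with Dex + LPS against LPS, by 0.69 with Dex + iBRD9 + LPS against Dex + LPS and by 0.23 with Dex + dBRD9 + LPS against Dex + LPS. It did not pass with dBRD9 + LPS against LPS (-0.12, adjusted p = 0.207). Against vehicle, Csrnp1 was higher by 4.63 with LPS and by 6.56 with IFNγ + LPS. Of the other tested genes near Cx3cr1, with Dex + LPS against LPS Slc25a38 rose by 0.36 and Rpsa fell by 0.21, and Rpsa fell by 0.28 with Dex + iBRD9 + LPS against Dex + LPS. Near Ccrl2, Ltf fell by 1.67 with Dex + LPS against LPS, from a low mean of 1.53 to 0.477 CPM. Lrrfip2 fell by 0.29 with Dex + iBRD9 + LPS against Dex + LPS. Some neighbours were tested in experiment 2 only. With IFNγ + LPS against vehicle, Gm43814 near Ccrl2 rose by 4.32 (0.118 to 2.44 CPM) and 1700019L13Rik near Cx3cr1 by 6.18 (0 to 0.549 CPM). Gm6170 near Cxcr4 did not pass (-0.08). With dBRD9 + LPS against LPS the values were 0.19 for Slc25a38, -0.04 for Rpsa, 0.51 for Ltf and -0.04 for Lrrfip2, which did not pass (adjusted p 0.211 to 0.806).

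**Figure D4:**
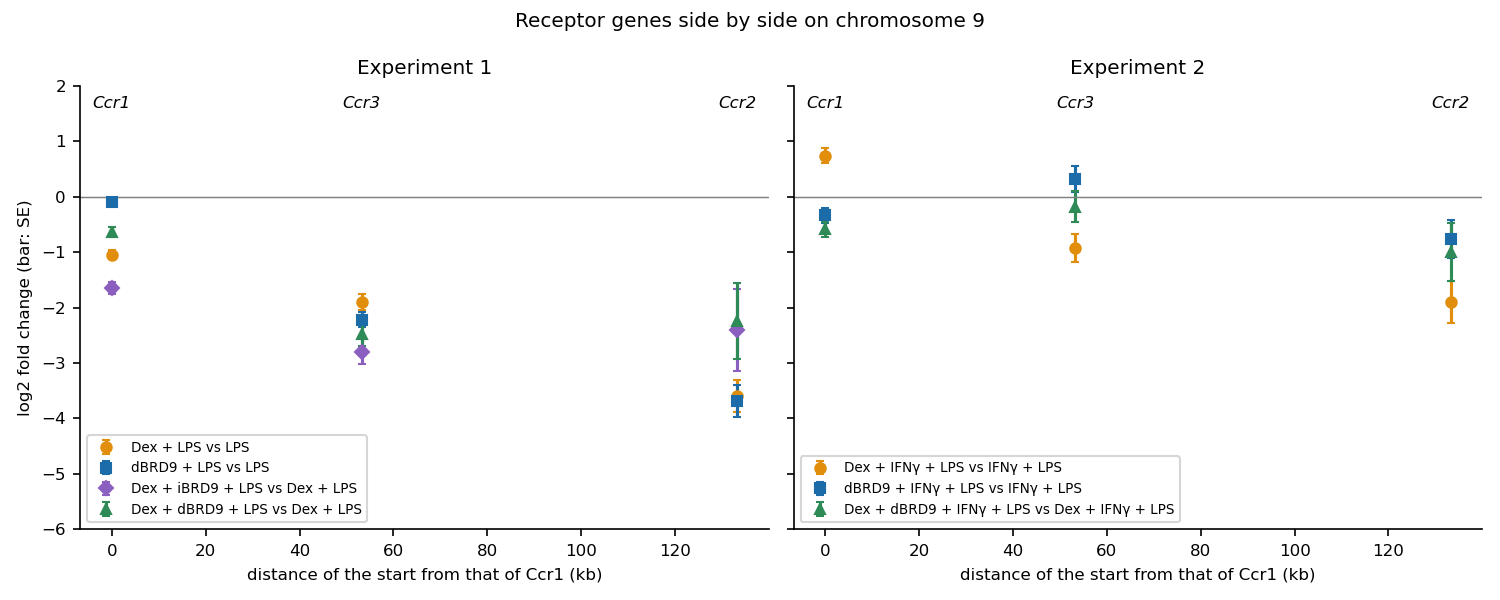
Log2 fold change with its SE of Ccr1, Ccr3 and Ccr2 against the distance of their starts from that of Ccr1, in kb, for the Dex and BRD9 comparisons of each experiment. In experiment 1 dBRD9 + LPS is near 0 for Ccr1 and below -2 for Ccr3 and Ccr2.

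Across the 21 libraries of experiment 1, which share groups and treatments, Pearson's r on log2(CPM + 0.5) was 0.89 between Ccr1 and Ccr3, 0.91 between Ccr3 and Cx3cr1 and -0.93 between Cxcr4 and Ccrl2. These libraries include the groups on whose falls some members were selected, so r in experiment 1 is not independent of that choice. In the 10 libraries of experiment 2, r was 0.22 for Ccr1 and Ccr3 and -0.96 for Cxcr4 and Ccrl2. The pair of Cxcr4 and Ccrl2 thus kept its sign, and r was smaller for Ccr1 and Ccr3. Other pairs changed sign from experiment 1 to experiment 2: r was -0.65 and then 0.94 for Ccr1 and Ccrl2, 0.81 and -0.62 for Ccr1 and Ccr2, 0.39 and -0.87 for Ccr1 and Cxcr4, 0.18 and -0.63 for Ccr3 and Cxcr4, and -0.41 and 0.49 for Ccr3 and Ccrl2. Among 8500 genes with a mean of at least 10 CPM in a group, the pattern most like that of Ccrl2 over the 21 libraries was that of Gadd45b (r = 0.998), Nfkbia (0.997) and Rhbdf2 (0.997). For Cxcr4 it was that of Bmf (0.991), Susd3 (0.984) and Slc26a11 (0.982), and in experiment 2 all 6 of these had r of 0.97 or more. For Ccr1 they were Fcgr1 (0.980), Egr2 (0.980) and Nuf2 (0.979), with r of 0.95, -0.80 and -0.60 in experiment 2. For Ccr2 they were Tep1 (0.9751), Il21r (0.972) and Rgs14 (0.969), for Ccr3 Csf3r (0.972), Fn1 (0.971) and Akr1b8 (0.971), and for Cx3cr1 Cysltr1 (0.985), Gna15 (0.981) and Epsti1 (0.978). In experiment 2, r in the same order was 0.82, 0.56 and 0.79 for Ccr2 and 0.92, 0.70 and -0.17 for Ccr3. Cx3cr1 did not pass the filter there.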

How the data were processed

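Bulk RNA-seq of 31 libraries was used, 21 in experiment 1 and 10 in experiment 2. The deposited values are raw counts per Ensembl gene, made by the authors, and every library column was used. The submitters' processing notes name mm10, STAR, fastp and DESeq2, with no version. How reads were counted, and on which strand, is not given in the sources used here. Symbols matched for 34490 and 54409 identifiers (GENCODE M21).

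Labels gave the groups. A separate model with a coefficient for every group was fitted to each experiment. Genes kept by filterByExpr (minimum count 10, minimum total 15) were 12662 and 13313. After TMM scaling, edgeR 4.0.16 (R 4.3.3) gave quasi-likelihood tests, and a gene was called where its Benjamini-Hochberg adjusted p, taken over every tested gene, was under 0.05. An SE is the size of the log2 fold change divided by the square root of F. The common biological coefficient of variation was 6.79% and 10.6%, with 14 and 5 residual degrees of freedom. CPM are counts per 1000000 of TMM-scaled totals. Scripts were tested on simulated data. Alternatives were other scalings, no filter, DESeq2 1.42.0, limma voom 3.58.1, only the groups compared, a replicate block, and libraries left out.

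Members and lists were chosen with earlier results of these data known. Named genes are all members, up to 4 called genes per list with the largest change and at least 10 CPM, the 3 genes most like each member, and tested neighbours within 100 kb of Cx3cr1, Cxcr4 or Ccrl2. Some items are not reported here.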

Additional observations from a re-analysis of the deposited data

Results flagged for a closer look

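The effect of the degrader on Ccr1 differed with and without Dex under LPS, by the test of the interaction (-0.53 on the log2 scale, adjusted p = 0.0147 by edgeR). It was -0.63 with Dex and -0.09 without.

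Among 15 pairs of effects set side by side over the experiments, 2 had opposite signs and compared groups that did not overlap in either experiment. How many of all genes met this rule was not counted, and experiment 2 had only 2 libraries per group. The difference between the experiments was not tested. Dex changed Ccr1 by -1.05 under LPS and by 0.74 under IFNγ + LPS, both called. dBRD9 changed Ccr3 by -2.22 under LPS, while under IFNγ + LPS the value was 0.32 and did not pass.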

How the results depend on the processing

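Of 957 values of members under alternatives, 893 kept direction and call, 22 lost a call, 4 gained one, 20 changed sign, none of them called as reported, and 18 values without a test moved by more than the spread between replicates. A member dropped by the filter of an alternative fit gave no value there and is not in these counts. This holds for Ccr2 in the comparisons against Dex + LPS that used only the groups compared and had a BRD9 compound added. Count of members called: for Dex + iBRD9 + LPS against Dex + LPS 5 became 3 with only the groups compared and was 3 to 5 with a library left out. For the interaction of Dex and dBRD9 under LPS 1 became 0 with only the groups compared, and 0 to 1 with a library left out. For Dex + dBRD9 + IFNγ + LPS against Dex + IFNγ + LPS 1 became 0 with the replicate block (Ccr1, adjusted p = 0.0731 by edgeR) and was 0 to 1 with a library left out.

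The values that changed sign had not passed the test. Ccrl2 with Dex + LPS was 0.0527 with library totals alone. Ccr2 between Dex + iBRD9 + LPS and Dex + dBRD9 + LPS was 0.28 with limma voom and 0.14 without both libraries that stood apart, and -0.73 to 0.28 with a library left out. Ccrl2 in the interaction under LPS was -0.00289 with RLE, -0.00300 with DESeq2, and -0.0163 to 0.0595 with a library left out. With a library left out, Cxcr4 with Dex + dBRD9 + LPS was -0.29 to 0.0604, Ccr2 with IFNγ + LPS -0.39 to 0.0330, Cxcr4 with dBRD9 + IFNγ + LPS -0.23 to 0.43, Ccrl2 and Ccr3 with Dex + dBRD9 + IFNγ + LPS -0.0945 to 0.0488 and -0.54 to 0.11, and Ccr2 in the interaction under IFNγ + LPS -1.45 to 0.42. The cause was not tested. In experiment 2 a left-out library leaves its group with 1, assumed to vary like the other groups.

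Genes called over all genes ranged from 1618 to 3465 for dBRD9 + LPS (2103 as reported), 2283 to 4847 for Dex + iBRD9 + LPS (4390), 579 to 2558 for Dex + dBRD9 + LPS (1999), 1281 to 2870 between the Dex + compound groups (2022), 211 to 947 for the interaction under LPS (429), 1530 to 3020 for Dex + IFNγ + LPS (2655), 65 to 410 for dBRD9 + IFNγ + LPS (243), 33 to 515 for Dex + dBRD9 + IFNγ + LPS (186) and 0 to 144 for the interaction under IFNγ + LPS (1).

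The replicate numbers were not taken as pairing the libraries, since not every same-numbered pair correlated above 0.1: 13 of 63 did in experiment 1 (r -0.17 to 0.69, median 0.01) and 2 of 20 in experiment 2 (-0.68 to 0.25, median -0.02). As a hint from the data, 12 of 21 and 6 of 10 libraries correlated best with their own number. The replicate block changed no other call of a member. Ccr2 and Cx3cr1 at a few reads per library limit what could be detected there.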
